A study of Mus musculus with 16 samples.

Results

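Definitive endoderm progenitors (DEPs) and mesoderm progenitors (MPs) that had been sorted at the same low level of the surface protein CD24 were compared on arrays from 2 days of mouse embryonic stem (ES) cell differentiation. The set comprised the 4 Foxa2+/T-/CD24-low arrays (DEP) and the 4 Foxa2-/T+/CD24-low arrays (MP), chosen by their sort gates, with 2 arrays of each at day 2 and 2 at day 4. These are 8 of the 16 arrays of the series, and 18716 genes could be read on all of them. DEPs came from endoderm differentiation with activin A at 12 ng/ml, and MPs from mesoderm differentiation, in which the same medium received Bmp4 at 7.5 ng/ml together with activin A at 3 ng/ml. Whether the activin A of the endoderm medium was present there too is not clear from the sources, so the total activin A in the mesoderm cultures is not known. Both were grown on feeders that express Wnt3a. Lineage and medium therefore cannot be told apart. All cells descended from 1 knock-in reporter line that carries GFP at T and tagRFP at Foxa2, 1 allele each. The sample labels call its parental line E14.1, of 129/Ola origin, and the methods call it G4. Later populations, used below for comparison only, were Foxa2+/T-/CD24-high definitive endoderm (DE) and Foxa2-/T+/CD24-negative mesoderm (MES) at day 4, and undifferentiated ES cells were profiled unsorted from feeder cultures.

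At gastrulation, cells of the epiblast pass through or beside the primitive streak and become mesoderm or definitive endoderm. Nodal, a Tgf-beta family ligand for which activin A stands in vitro, favours endoderm and the anterior streak, whereas Bmp4 and canonical Wnt signals favour posterior streak and mesoderm. Foxa2 is a forkhead factor of the anterior streak and the endoderm, T (brachyury) is a T-box factor of the streak and nascent mesoderm, and CD24 is a glycoprotein of epithelial and progenitor cells.

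The samples are labelled as biological replicates. Nothing further says which cultures they came from, so that p-values measure only the spread between these arrays. Array medians lay between 7.42 and 7.49 on the log2 scale of the deposited values, and Pearson's r of replicate arrays, over probe sets, was 0.993 to 0.995 in the DEP and MP groups. DEP and MP arrays correlated at 0.988 to 0.991 on day 2 and at 0.980 to 0.982 on day 4. Of the markers of endoderm fixed for this comparison, 2 of 7 were higher in DEPs (Cer1 and Foxa1), and of the mesoderm markers 6 of 7 were lower. The endoderm factors Sox17 (0.78) and Hhex (0.36) did not pass, and the receptor Cxcr4 was on the MP side (-0.52, adjusted p = 0.0123, not called), so the name endoderm progenitor rests on few of its defining markers. None of 5 markers of undifferentiated cells passed. Of 21 fibroblast feeder markers 1 was called, Pdgfrb, a growth factor receptor of fibroblasts that mesoderm also expresses (-1.59). The summed level of the 21, taken off the log scale, was 9426 to 14194 on DEP arrays, 6480 to 9010 on MP arrays and 27348 to 37318 on ES arrays, and its part in the results was not tested. Visceral endoderm markers summed to 909 to 2095 on DEP arrays and 651 to 724 on MP arrays, with 1 of 6 called (Cubn), and trophoblast markers to 211 to 313 on DEP arrays and 403 to 590 on MP arrays, with 1 of 3 called (Plac1), and their part was likewise not tested. The brightest 2 of the feeder markers in DEPs, the matricellular genes Ccn1 (11.89 in DEPs and 10.91 in MPs, against 10.85 in ES cells) and Ccn2 (11.82 in DEPs and 10.86 in MPs, against 11.70 in ES cells), were higher there by 0.99 and 0.95 without being called. Fbln2 (-0.72) and Acta2 (-0.53) were on the MP side. Postn averaged 5.25 in DEPs and 5.22 in MPs, against 10.27 in ES cells. In sorted populations a lower signal from fewer expressing cells and from less RNA per cell cannot be told apart.

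Genes were called when the log2 difference, DEP minus MP with both days weighted equally, exceeded 1 in size at a Benjamini-Hochberg adjusted p below 0.05 (limma). By this rule 187 genes were higher in DEPs (0.999% of those tested) and 184 were lower (0.983%), and these shares are the background for every list count of the comparison. The difference was above 2 for 37 genes and below -2 for 35, and the median over all genes was 0.005. All 4 DEP arrays lay above all 4 MP arrays for 172 of the 187 higher genes and below them for 165 of the 184 lower genes. Over all genes such separation was seen for 7.98% with DEPs above and for 6.49% with DEPs below. Next to the threshold were Rem2 (1.008, called) and Dact1 (0.997, not called), and on the other side Gbp3 (-1.001, called) and Prr5l (-0.988, not called).

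The called genes were also set against ES cells. Of the 187, the DEP mean was more than 1 above the ES mean for 96, and the MP mean was more than 1 below it for 52. For the 184 lower genes the counts were 96 with MPs more than 1 above ES cells and 48 with DEPs more than 1 below. ES cells were not sorted, and these counts are a description without a test. Genes chosen for a difference above 1 will often lie more than 1 from another level, and no such share over all genes was taken. Feeder markers were also higher on the ES arrays. The counts therefore do not tell a gain in either lineage from a loss in the other.

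Foxa2, by which the cells were sorted, was at 11.09 and 11.41 on the day 2 and 10.02 and 10.00 on the day 4 DEP arrays, against 7.73 and 8.26 on the day 2 and 7.71 and 8.05 on the day 4 MP arrays. As a sorting gene it is a check of the gates and no finding. Cd24a, the gene of CD24, was at 12.67, 12.55, 12.87 and 13.02 in DEPs, against 12.40, 12.52, 12.45 and 12.33 in MPs, in the same order of arrays. The ranges did not overlap, yet the difference of 0.35 (standard error 0.09, adjusted p = 0.0249) was far from that between CD24-high DE and CD24-negative MES cells at day 4 (2.32). The transcript T was not analysed here.

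Among the 20 genes of highest difference, secreted antagonists of Nodal and Bmp stood beside genes of no common pathway. Srgn, the serglycin core protein of secretory granules, was at 12.23, 11.89, 10.47 and 11.15 in DEPs (days 2, 2, 4 and 4), against 6.40, 6.41, 7.11 and 6.97 in MPs. Its difference of 4.71 had the widest error of the leading genes (standard error 0.68, adjusted p = 7.09e-04). Cer1, which binds and blocks Nodal and Bmps, was at 10.12, 9.73, 11.45 and 11.55 in DEPs, against 6.68, 6.62, 6.27 and 6.66 in MPs. Its difference was 4.16 (standard error 0.20, adjusted p = 1.82e-07). For both genes the lowest DEP array lay above the highest MP array by about 3 log2 units or more.

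Timp4, an inhibitor of matrix metalloproteinases, averaged 6.41 in ES cells, and all 4 MP arrays (6.55 to 7.04) were near that level while the DEP arrays were at 9.61, 9.25, 11.19 and 11.54 (3.60, adjusted p = 8.06e-09). Ikzf1 (Ikaros), a zinc finger factor best known from lymphoid cells, showed the same layout, with 9.63, 9.32, 10.58 and 10.47 in DEPs, against 7.13, 6.94, 6.85 and 6.95 in MPs and a mean of 6.87 in ES cells. Fgf14, an intracellular member of the Fgf family, reached 8.48, 8.27, 9.32 and 9.21 in DEPs, against 6.50, 6.54, 6.28 and 6.09 in MPs (2.47, standard error 0.08, adjusted p = 1.23e-08). These 3 genes were low in both MPs and ES cells and raised on every DEP array. Other genes were at ES level or above in DEPs and lower in MPs: Slc27a2, which activates very long chain fatty acids, averaged 11.71 in ES cells and was at 12.47 to 12.69 in DEPs, against 10.86 and 10.55 on day 2 and 7.64 and 7.88 on day 4 in MPs. The remaining leading genes included Gpm6b (2.53), Slc39a8, a zinc and manganese transporter (2.49), Gpx2, a glutathione peroxidase of the gut (2.47), Mal2, a protein of epithelial transcytosis (2.45), and Pga5, a pepsinogen (2.33).

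Transcription factors of lateral mesoderm and genes of the Bmp and Wnt pathways led the other direction. Foxf1, a forkhead factor of splanchnic mesoderm, was at 6.35, 6.45, 6.53 and 6.37 in DEPs, against 9.61, 9.56, 11.55 and 11.38 in MPs (-4.10, standard error 0.10, adjusted p = 6.55e-10). A second, dimmer probe set of Foxf1 gave -2.12. Meis2, a TALE homeobox factor, did not have a called change with the day: the DEP arrays were at 6.71 to 6.97, against 10.31 and 10.40 on day 2 and 9.94 and 9.56 on day 4 in MPs (-3.23, standard error 0.26). Nrp2, a co-receptor of semaphorins and Vegf, was at 6.95 to 7.11 in DEPs, against 9.38 to 10.54 in MPs (-2.88). Ccnd2 (cyclin D2) was at 8.60 to 9.37 in DEPs, against 11.29 to 11.63 in MPs (-2.52). It averaged 11.32 on the ES arrays, which were unsorted and held feeders, so its level in ES cells alone is not known. Anpep, a membrane aminopeptidase (-2.51), Pmp22, a membrane protein of peripheral myelin (-2.58), Capn6, a calpain family protein (-2.56), and the matrix protein Hmcn1 (-2.66) were also among the 20 lowest.

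**Figure D1:**
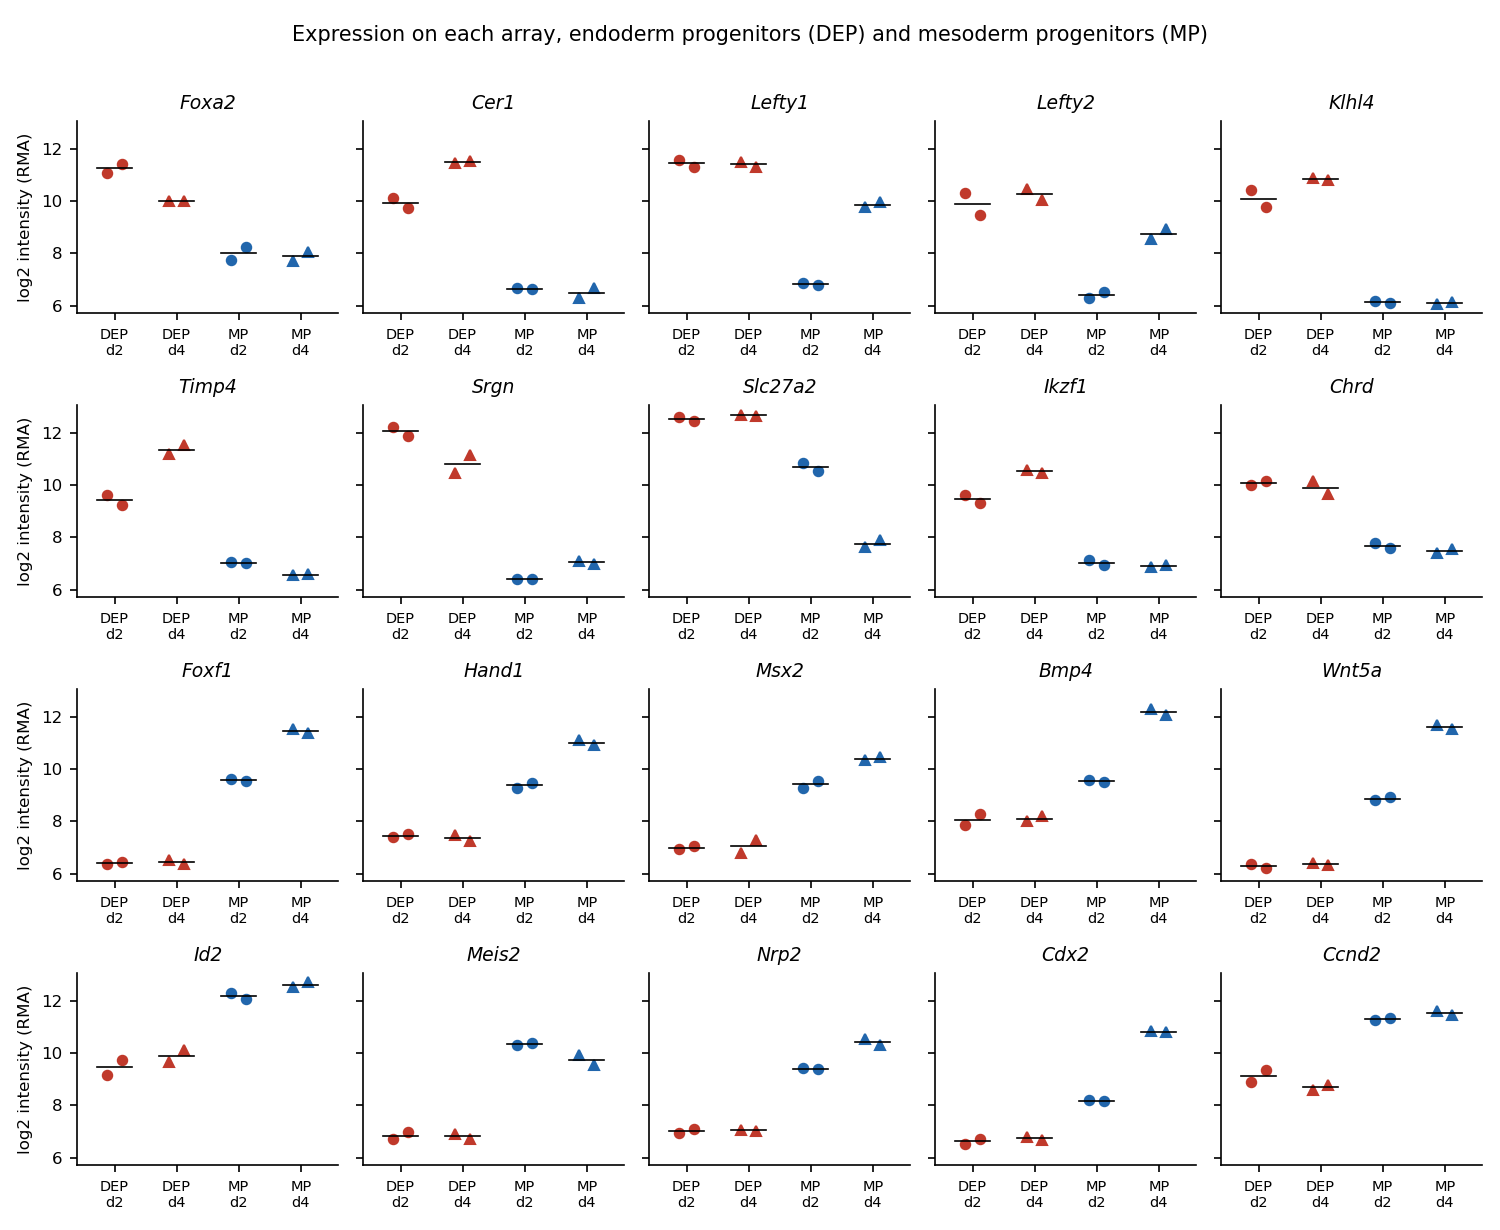
Log2 intensity on each array for 20 genes called in DEPs compared with MPs, DEPs in red and MPs in blue, with circles for day 2, triangles for day 4 and a bar at each group's mean of 2 arrays. The DEP and MP arrays do not overlap in any of the 20 panels. Foxa2 is a sorting gene, and the leading genes were picked among those without overlap, so their separation came with the choice. MPs change more with the day than DEPs for Bmp4, Wnt5a, Cdx2, Lefty1 and Slc27a2.

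Of 31 genes of the Nodal and activin pathway, 5 were higher in DEPs and 2 lower, with a median of 0.09. The calls fell on antagonists and targets: among 6 antagonists 3 were higher (Cer1, Lefty1 and Lefty2) and 1 lower (Fst). Lefty2, a secreted blocker of Nodal, was at 10.33, 9.47, 10.48 and 10.06 in DEPs, against 6.30, 6.51, 8.54 and 8.94 in MPs, and averaged 10.42 in ES cells (2.51, adjusted p = 1.96e-05). Lefty1, its paralog and Nodal antagonist, averaged 11.16 in ES cells and was at 11.32 to 11.57 in DEPs, against 6.86 and 6.80 on day 2 and 9.76 and 9.97 on day 4 in MPs. Both Lefty genes were thus at ES level in DEPs and below it on every MP array, most at day 2.

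Fst (follistatin), which binds activin, ran the other way, and its level was lower on the later day in both populations: it was at 10.20, 10.81, 9.03 and 9.13 in DEPs, against 12.13, 12.40, 10.53 and 10.78 in MPs (-1.67, adjusted p = 2.06e-04). The DEP arrays of day 2 overlapped the MP arrays of day 4, although within each day DEPs were lower. Of 9 targets, Otx2, a homeobox factor of the anterior epiblast (1.92), and Gsc, an organizer gene of the same class (1.31), were higher, and Tmem176b was lower (-1.57). None of 6 ligands and none of 6 receptors or co-receptors was called, Nodal itself being at 10.46, 10.40, 10.09 and 10.10 in DEPs, against 10.68, 10.49, 9.45 and 9.70 in MPs (0.18, adjusted p = 0.175).

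In the Bmp pathway 1 of 51 genes was higher and 9 were lower in DEPs, 7 of the 9 among the 15 targets, whose median was -0.71. Bmp4, the ligand, was at 7.85, 8.28, 8.01 and 8.21 in DEPs, against 9.58 and 9.51 on day 2 and 12.31 and 12.06 on day 4 in MPs (-2.78, standard error 0.22, adjusted p = 8.67e-06). The mean in ES cells was 11.70, so the MPs of day 2 were also below it. Chrd (chordin), a secreted Bmp antagonist of the organizer, was at 10.00, 10.14, 10.15 and 9.65 in DEPs, against 7.77, 7.60, 7.41 and 7.57 in MPs (2.40, standard error 0.12, adjusted p = 2.95e-07). Bmp4 and Chrd were thus separated in opposite directions on all 8 arrays. Bmp4 was the only 1 of 11 ligands called, and Chrd the only 1 of 11 secreted or membrane inhibitors. The median of the inhibitors was -0.12, and Bmper, another of them, was on the MP side (-0.97, adjusted p = 0.000173, not called).

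The called targets were Msx2, Hand1, Id2, Id1, Tfap2c, Tfap2a and Msx1, and the intracellular inhibitor Smad6 was at -1.01. Id1, an inhibitor of bHLH factors, was at 7.94, 7.99, 8.28 and 8.66 in DEPs, against 10.68, 10.20, 10.89 and 10.87 in MPs (-2.44, standard error 0.24, adjusted p = 3.63e-05). Id2, its close relative, was at 9.17, 9.75, 9.67 and 10.12 in DEPs, against 12.29, 12.06, 12.54 and 12.72 in MPs (-2.73, standard error 0.18). ES cells averaged 9.50 for Id1 and 11.32 for Id2, between the DEP and MP arrays for both genes. Id3 was at -0.38 (adjusted p = 0.0575) and did not pass. Hand1, a bHLH factor of heart and lateral mesoderm, was at 7.24 to 7.50 in DEPs, against 9.29 and 9.46 on day 2 and 11.12 and 10.92 on day 4 in MPs, and Msx2, a homeobox factor, was at 6.79 to 7.30 in DEPs, against 9.29 to 10.45 in MPs. Tfap2a (-1.98) and Tfap2c (-2.04), AP-2 factors of surface ectoderm and trophoblast, and Msx1 (-1.14) had smaller differences. Smad6 was not called when replicate 1 of any of the 4 DEP and MP groups was left out (-0.97 to -0.99).

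The Id2 promoter is shown because, of the 4 called Bmp targets found in the RefSeq table, Id2 alone had a match to GGCGCC, a motif bound by Smad1 and Smad5, in the 250 bases before its start. The sequence is chr12:25096093-25096342 (GRCm38.p6, minus strand, RefSeq), with the match in capitals, its first base 231 bases before the start.
Id2: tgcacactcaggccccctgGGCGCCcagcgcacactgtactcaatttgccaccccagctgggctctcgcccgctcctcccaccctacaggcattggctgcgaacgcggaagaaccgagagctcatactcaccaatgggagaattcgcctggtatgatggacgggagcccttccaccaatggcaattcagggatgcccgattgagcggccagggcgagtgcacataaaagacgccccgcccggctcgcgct
Both strands were searched. The motif was present in 1 of the 5 promoters of these 4 genes, and in 9.59% of all 32851 promoters of that length. The table held 4 of the 7 called Bmp targets, 145 of the 187 higher and 133 of the 184 lower genes. Genes outside it were not searched. GGCGCC was in 17.8% of promoters of the higher genes and 14.1% of those of the lower genes. It was thus not particular to the lower genes. In the same order, the forkhead motif (TGTTTAC) was in 2.09% and 5.52%, against 3.17% of all promoters. That of Tcf and Lef (CTTTGAT) was in 2.62% and 3.68%, against 3.21%, and that of Gata factors (AGATAA) in 4.19% and 4.91%, against 9.99%. The motifs of Foxh1 (TGTGGATT), Smad3 and Smad4 (GTCTAGAC) and T-box factors (AGGTGTGA) were in at most 1.05% of either set. All these motifs were chosen with earlier results of these data known, and no share was tested. A match of letters does not show that a factor binds.

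Wnt pathway genes were called in both directions, 4 higher and 5 lower of 73. Of the lower ones, Wnt5a, a ligand of largely non-canonical signals, was at 6.23 to 6.41 in DEPs, against 8.81 and 8.92 on day 2 and 11.70 and 11.54 on day 4 in MPs (-3.91). Rspo3, a secreted enhancer of Wnt signals, was at 7.83, 8.05, 8.42 and 8.17 in DEPs, against 9.71, 9.78, 11.30 and 11.01 in MPs (-2.33, standard error 0.17). Cdx2, a homeobox factor of the posterior embryo (-2.82), Sp8 (-1.53) and the receptor Fzd10 (-1.38) were lower too. The higher genes were 2 secreted inhibitors, Dkk1 (1.97) and Sfrp1 (1.35), and 2 receptors, Fzd8 (1.66) and Fzd5 (1.15). Dkk1 was at 9.24, 8.86, 11.59 and 11.75 in DEPs, against 7.89, 8.42, 8.60 and 8.66 in MPs, so that most of its gap lay at day 4. Wnt3, a streak ligand, fell short of the threshold at -0.92, and Wnt3a was at -0.07.

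Of 44 Fgf pathway genes 2 were higher (Fgf14 and Fgf5) and 1 lower (Dusp4, a phosphatase that damps Fgf and Erk signals, -1.20). Fgf5, a ligand of the primed epiblast, was at 11.87 to 12.09 in DEPs, against 11.42 and 11.22 on day 2 and 8.76 and 8.79 on day 4 in MPs (1.92). Of 27 genes of the platelet-derived, endothelial and insulin-like growth factor families 3 were higher and 7 lower. The Vegf receptors differed in opposite directions: Flt1 was at 10.34, 10.05, 10.65 and 10.68 in DEPs, against 8.23, 8.01, 8.62 and 8.24 in MPs (2.16, adjusted p = 1.67e-07), while Kdr was at 6.39 to 6.61 in DEPs, against 7.54, 7.80, 9.17 and 8.91 in MPs (-1.84, adjusted p = 1.69e-05). The platelet-derived growth factor receptors Pdgfra (-1.46) and Pdgfrb, the growth factor Igf2 (-1.99), Igfbp4 (-1.55) and Kitl, the ligand of Kit (-1.16), were lower, and Igfbp2 (1.69) and the adaptor Irs4 (1.36) higher. Of 18 retinoic acid genes, the binding proteins Crabp2 (-2.41) and Crabp1 (-1.37) were lower and the retinaldehyde reductase Dhrs3 was higher (1.60). Of 25 Notch genes 1 was called, Dlk1 (-1.11).

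Definitive endoderm genes moved mostly, but not only, towards DEPs: 11 of 33 were higher and 2 lower, with a median of 0.46 against 0.005 over all genes. Members that are not transcription factors made up 9 of the 11, and of 13 transcription factors 2 were higher, Otx2 and Foxa1. Foxa1, the paralog of Foxa2, was at 8.49, 8.47, 9.90 and 9.61 in DEPs, against 7.51, 7.48, 7.20 and 7.89 in MPs (1.60, standard error 0.16, adjusted p = 4.17e-05). Sox17 was at 6.99, 6.81, 7.96 and 8.28 in DEPs, against 6.29, 6.37, 7.03 and 7.21 in MPs (0.78, adjusted p = 0.00272). DEPs were higher within each day, by less than the threshold, and DE cells averaged 10.88. Prdm1 (Blimp1), a repressor known from endoderm, the germ line and plasma cells, was among the lower genes, with 6.90, 6.97, 8.09 and 8.28 in DEPs, against 8.94, 9.39, 10.29 and 10.37 in MPs (-2.19, standard error 0.11, adjusted p = 2.87e-07), and a mean of 8.92 in ES cells. The other was Cpm, a membrane carboxypeptidase (-2.36).

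Of 13 anterior streak and organizer genes 4 were higher and none lower (median 0.69), namely Otx2, Fgf5, Gsc and Hesx1, a homeobox repressor of the anterior neural plate (1.15). Hesx1 fell under the threshold without DEP day 4 replicate 2 (0.95). Among 15 genes of nascent and posterior streak none was higher and 6 were lower (median -0.90): Cdx2, Fst, Mesp1, Sp8, Hoxb1 and Nkx1-2. Eomes, a T-box factor that both lineages need, was at 11.36, 11.77, 10.77 and 10.92 in DEPs, against 11.84, 11.82, 10.05 and 9.94 in MPs (0.29, adjusted p = 0.118), and Mixl1, a homeobox factor of the streak, was at 0.69. Of 18 visceral endoderm genes 3 were higher, Cubn, Slc39a8 and Lrp2. Cubn (cubilin), an endocytic receptor of visceral endoderm and kidney, was at 10.46, 9.77, 6.45 and 6.63 in DEPs, against 5.86, 5.39, 6.05 and 5.81 in MPs, so the call rested on day 2 and was lost without DEP day 2 replicate 1 (2.38, adjusted p = 0.054) and without MP day 2 replicate 2 (2.43, adjusted p = 0.053). None of the other 5 visceral endoderm markers fixed for the check was called.

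Of 23 lateral and cardiac mesoderm genes none was higher and 8 were lower (median -0.57). Besides Foxf1, Msx2, Hand1 and Msx1 these were Mesp1, which marks the first cardiac progenitors (-1.60), and Tbx20 (-1.45), Tbx3 (-1.35) and Isl1 (-1.20), factors of heart and limb. Mesp1 was at 6.30 to 6.66 in DEPs, near the ES mean of 6.47, against 7.89 to 8.26 in MPs, with no overlap. Of 19 paraxial mesoderm genes only Rspo3 was called. Tbx6, a factor of presomitic mesoderm, was separated on all arrays yet at -0.82.

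Genes of blood and vessel progenitors divided evenly, 4 higher and 4 lower of 30. Kdr, the endothelial factor Etv2 (-1.26), VE-cadherin (Cdh5, -1.08) and Pecam1 (-1.04) were lower, and Srgn, Ikzf1, Flt1 and Lcp1, an actin bundling protein of leukocytes (1.51), were higher. The 4 lower genes belong to endothelium. Of the higher ones, Flt1 is endothelial as well, and Srgn, Ikzf1 and Lcp1 are best known from blood cells. The calls of Cdh5 and Pecam1 did not hold without single arrays (Cdh5 -0.98 without MP day 4 replicate 2).

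Of 13 genes of primordial germ cells, the precursors of egg and sperm that arise next to Bmp4-secreting tissue in the mouse embryo, 6 were lower in DEPs and none higher (median -0.44). Alpl, the alkaline phosphatase used to stain these cells, was at 8.66, 8.84, 7.78 and 7.85 in DEPs, against 10.32, 10.11, 11.31 and 11.39 in MPs (-2.50, standard error 0.13, adjusted p = 3.95e-07). Ifitm1 (-2.48) and Ifitm3 (-2.42), interferon-induced membrane proteins, Prdm1, Tfap2c and Prdm14, the last a regulator of both germ cells and naive pluripotency (-1.50), were the others. Prdm14 was at 6.41 to 6.67 in DEPs, against 7.25 and 7.28 on day 2 and 8.51 and 9.15 on day 4 in MPs. The same 6 genes also have roles outside the germ line, and ES cells expressed Alpl, Ifitm1 and Ifitm3 at 11.01, 11.63 and 12.58.

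Interferon-inducible genes were called only in the direction of lower levels in DEPs. Of 36 measured, 12 were lower and none higher, with a median of -0.50. Parp12, a mono-ADP-ribosyltransferase, was at 7.59, 7.14, 6.88 and 6.58 in DEPs, against 9.49, 9.39, 10.57 and 11.12 in MPs (-3.10, standard error 0.19, adjusted p = 1.01e-06). Oasl2, an antiviral protein of the oligoadenylate synthetase family, was at 7.81, 7.51, 7.27 and 7.37 in DEPs, against 8.62, 8.66, 10.74 and 10.88 in MPs (-2.23). Irf1, a transcription factor downstream of interferon gamma, was at 9.71, 9.32, 8.15 and 8.31 in DEPs, against 10.81, 10.23, 10.78 and 10.99 in MPs (-1.83). In each of these 3 genes all DEP arrays were below all MP arrays. A second, dimmer probe set of Irf1 was at -0.21 and not called.

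The other members were Ifitm1, Ifitm3, Parp14 (-1.75), the immunoproteasome subunits Psmb10 (-1.65) and Psmb8 (-1.50), the RNA sensor Ifih1 (-1.43), Usp18 (-1.32), Parp9 (-1.23) and Gbp3, next to the threshold. Not all of the family moved: Irf7 was at 0.07 and Irf9 at -0.22, and Ifnb1, the interferon beta gene, was at 5.33 to 5.49 in DEPs, against 5.41 to 5.63 in MPs. A further list, drawn up after the values had been seen and therefore only described, held 34 measured guanylate-binding, antigen-processing and related genes, of which 14 were lower and none higher (median -0.53). Irgm1, an immunity-related GTPase, was at 8.99, 8.19, 7.43 and 7.55 in DEPs, against 10.48, 10.32, 11.01 and 11.13 in MPs (-2.70, standard error 0.17, adjusted p = 1.21e-06). Gbp4 (-1.60), Gbp2b (-1.52) and Gbp7 (-1.48), GTPases of cell-autonomous defence, the peptidase Erap1 (-1.48) and the checkpoint ligand Cd274 (-1.45) were further members. Psme2, an activator of the immunoproteasome, was at -1.40, and Tapbp, which loads peptides on class I molecules, at -1.35. The light chain of those molecules, B2m, was at 0.35 (adjusted p = 0.0811). The call of Gbp3, at the threshold, was lost without several single arrays, and that of Trim12c (-1.17) without DEP day 2 replicate 2. With the 16000 probe sets of highest mean 8 of the 12 and 4 of the 14 were called.

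Promoters of 2 of these genes are given because they hold GAAANNGAA, the core of the element that interferon-activated factors bind, searched on both strands after the values had been seen. The Irgm1 promoter is chr11:48871421-48871670 (minus strand) and holds 2 overlapping matches, 30 and 24 bases before the start. The Gbp2b promoter is chr3:142594597-142594846 (plus strand), with 1 match on the reverse strand, 136 bases before the start. Both are 250 bases from RefSeq on GRCm38.p6, with matches in capitals.
Irgm1: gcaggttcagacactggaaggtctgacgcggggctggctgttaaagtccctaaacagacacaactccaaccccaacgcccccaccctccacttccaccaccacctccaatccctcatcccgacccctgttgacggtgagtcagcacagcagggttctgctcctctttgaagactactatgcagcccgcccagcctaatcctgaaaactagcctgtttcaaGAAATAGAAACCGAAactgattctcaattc
Gbp2b: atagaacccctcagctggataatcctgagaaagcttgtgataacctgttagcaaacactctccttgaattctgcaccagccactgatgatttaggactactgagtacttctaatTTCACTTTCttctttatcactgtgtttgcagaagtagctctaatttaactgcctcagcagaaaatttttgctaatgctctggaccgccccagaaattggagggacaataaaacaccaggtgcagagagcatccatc
Of the 25 lower genes on the 2 interferon lists, 21 matched the RefSeq table. The motif was in 10 of their 26 promoters (38.5%), against 7.13% of all promoters. Its share over all measured genes of the lists was not taken, so the excess cannot be read as a trait of the called genes. The genes with a match were Cd274, Erap1, Gbp2b, Gbp3, Gbp7, Ifih1, Il15ra, Irgm1, Trim12c and Trim30a.

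Genes of motile cilia were called only in the direction of higher levels in DEPs. The list of 141 measured genes, among them axonemal and dynein arm proteins, was written after the leading genes had been seen, and its counts are a description. Of these, 18 were higher and none lower, with a median of 0.19 against 0.005 over all genes. Lrriq1, a leucine-rich repeat protein, was at 7.74, 6.97, 8.39 and 8.39 in DEPs, against 5.55, 5.50, 5.39 and 5.47 in MPs, and averaged 5.56 in ES cells (2.40, standard error 0.14, adjusted p = 6.12e-07). Cfap206, a protein of the ciliary axoneme, was at 7.68, 7.03, 8.60 and 8.58 in DEPs, against 6.01, 6.06, 6.16 and 6.17 in MPs (1.87, standard error 0.12). Pkd1l1, a polycystin that the mouse node uses to sense flow, was at 8.46 to 8.60 in DEPs, against 6.59 to 6.80 in MPs (1.80, standard error 0.16). In all 3 genes the ES and MP levels were close to each other and the DEP arrays stood above.

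The others were Nme5 (1.83), the radial spoke protein Rsph4a (1.76), Capsl (1.65), the kinase Mak (1.57), Cfap44 (1.49), Cfap69 (1.47), Ttc6 (1.42), Enkur (1.35), Efcab1 (1.25), Myb (1.24), Ppil6 (1.24), Mlf1 (1.21), Dnajb13 (1.20), Tekt5 (1.11) and Cfap52 (1.05). Foxj1, the forkhead factor that switches on motile cilium genes, was at 8.56, 8.63, 8.64 and 8.42 in DEPs, against 7.55, 7.69, 7.56 and 7.71 in MPs. The groups did not overlap, and the difference of 0.94 (standard error 0.07, adjusted p = 6.41e-06) was just under the threshold. Noto, a homeobox factor of the node, was at 0.32 (adjusted p = 0.0673), and Rfx2 (0.31) and Rfx3 (0.39), other regulators of ciliary genes, did not pass. Most called members were dim, and with the 16000 probe sets of highest mean 2 of the list were called. Cfap52 lost its call when single arrays were left out.

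The Lrriq1 promoter, chr10:103236323-103236572 (GRCm38.p6, minus strand, RefSeq), is shown for a match to GTTGCC, part of the site that Rfx factors bind, which begins 19 bases before the start and was searched on both strands after the values had been seen.
Lrriq1: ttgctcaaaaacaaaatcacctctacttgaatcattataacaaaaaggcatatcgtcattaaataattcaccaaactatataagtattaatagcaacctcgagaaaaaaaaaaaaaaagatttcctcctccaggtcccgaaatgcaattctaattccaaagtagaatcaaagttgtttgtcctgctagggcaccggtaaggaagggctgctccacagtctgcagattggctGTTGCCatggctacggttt
The motif was in 5 of 16 promoters of the higher cilium genes (31.2%), in 34.8% of the promoters of all measured cilium genes and in 10.4% of all promoters. The share in the higher genes was thus no greater than in the list they came from.

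**Figure D2:**
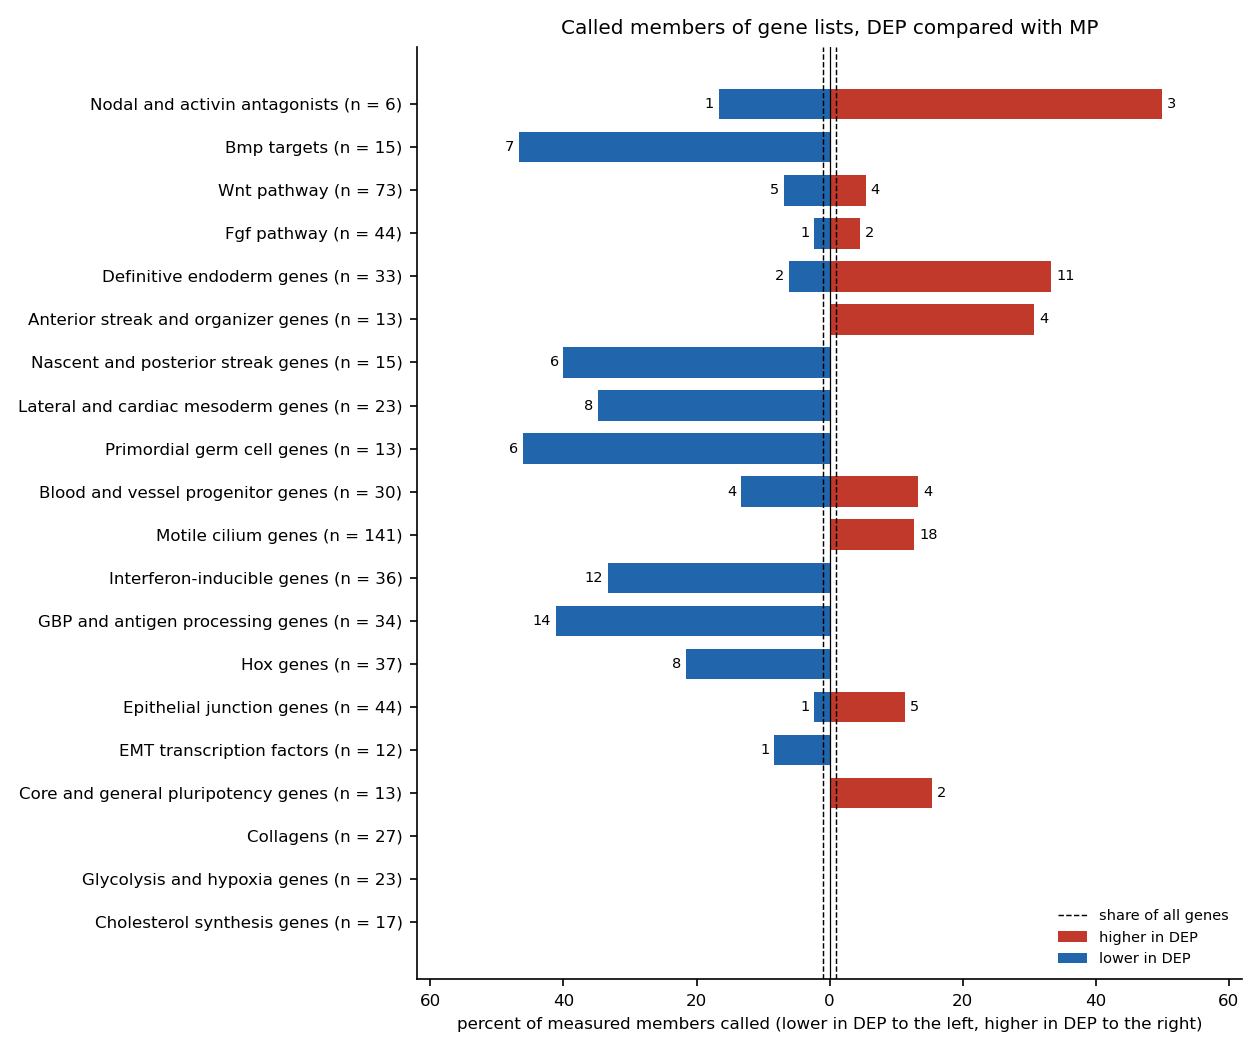
Percent of the measured members of each gene list called higher in DEPs (red, right) or lower in DEPs (blue, left), with the number of genes at each bar and dashed lines at the shares over all genes (0.999% and 0.983%). Bmp target, posterior streak, lateral mesoderm, germ cell, interferon and Hox lists have called members on the lower side only, and motile cilium and anterior streak genes on the higher side only.

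Hox genes, which pattern the trunk in order along their clusters, were called at day 4 and not at day 2. Of 37 measured, 8 were lower and none higher over both days (median -0.49). At day 2 none was called by limma, with 3 at an unadjusted p below 0.05 and a median of 0.01 (all genes, 0.647% higher and 0.540% lower). At day 4, 16 were lower, with a median of -0.90 (all genes, 1.77% higher and 1.78% lower). The change with the day was itself called for 16, all in the same direction (all genes, 0.657% up and 0.908% down). Hoxc8 was at 6.62, 6.68, 6.78 and 6.73 in DEPs, against 6.69 and 6.56 on day 2 and 10.12 and 9.71 on day 4 in MPs. Hoxd9 was at 6.65 to 6.95 in DEPs, against 6.89 and 6.95 on day 2 and 8.96 and 9.05 on day 4 in MPs. Hoxb1, the most anterior of the called genes, was separated on both days although not called at day 2, at 7.98 to 8.14 in DEPs, against 8.68 and 8.76 on day 2 and 10.06 and 9.71 on day 4 in MPs. Hoxb2 (-1.26) was likewise separated on all arrays, and Hoxc6, Hoxa9, Hoxd8 and Hoxc10 were separated at day 4 only. ES cells averaged 9.08 for Hoxc8, above every DEP array, and were grown with feeders. With the 16000 probe sets of highest mean 1 Hox gene was called over both days, and without MP day 4 replicate 2 the difference of Hoxd8 was -0.92.

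**Figure D3:**
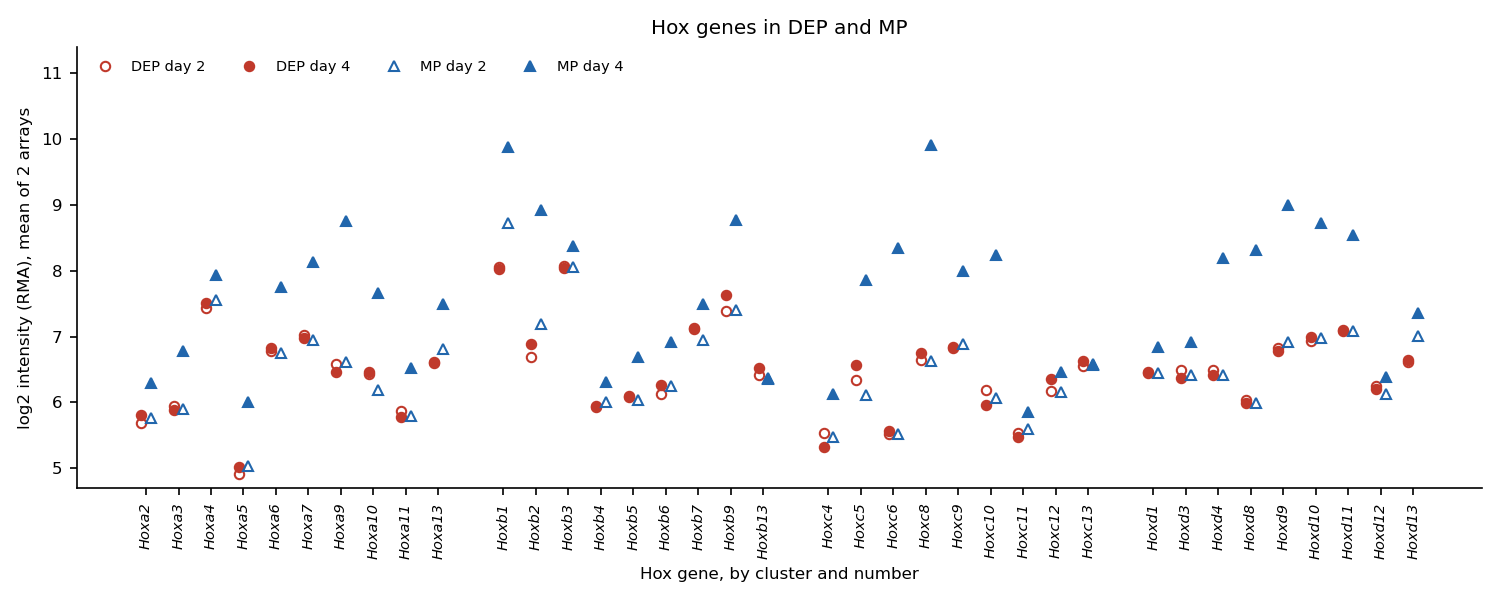
Mean log2 intensity of 2 arrays for each of 37 Hox genes, ordered by cluster and number, with DEPs as red circles, MPs as blue triangles, and open symbols for day 2 and filled ones for day 4. Filled blue triangles stand above the other 3 groups for 16 genes called at day 4, while open triangles stand farthest above the DEP symbols at Hoxb1, Hoxb2 and Hoxd13.

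Few genes of the epithelial to mesenchymal transition (EMT) were called. Of 12 EMT transcription factors 1 was called over both days, Mesp1, and the median was -0.41. Snai1 was at 8.62, 8.87, 8.26 and 8.47 in DEPs, against 9.51, 9.76, 9.45 and 9.20 in MPs, with no overlap at a difference of -0.92 (standard error 0.11, adjusted p = 1.56e-04). Over both days Zeb2 (-0.88, adjusted p = 0.00202) and Zeb1 (-0.91, adjusted p = 0.00429) were also just short of the threshold of size. Snai2 (-0.17) and Twist1 (-0.27) were not called. Within single days 2 of the 12 were lower on each, Mesp1 and Zeb2 (-1.17) at day 2 and Mesp1 and Zeb1 (-1.38) at day 4. Over all genes 0.540% were lower at day 2 and 1.78% at day 4. E-cadherin (Cdh1) was at 12.45 to 12.66 in DEPs, against 11.68 to 12.17 in MPs (0.60, adjusted p = 6.86e-05), and N-cadherin (Cdh2) was at 9.84, 9.63, 10.56 and 10.62 in DEPs, against 9.86, 9.85, 11.11 and 10.98 in MPs (-0.28, adjusted p = 0.191). The E-cadherin arrays were thus separated by a small step and the N-cadherin arrays overlapped.

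Of 44 junction genes 5 were higher, Krt7 (1.75), Cldn6 (1.58), Rab25 (1.51), Ocln (1.21) and P-cadherin (Cdh3, 1.08), and the polarity gene Crb2 was lower (-1.39). Of 16 mesenchymal genes fibronectin (Fn1, -2.08), Cdh11 (-1.55) and Tnc (-1.22) were lower. Fn1 was at 10.17 to 10.35 in DEPs, against 12.00 to 12.69 in MPs, and averaged 13.02 in ES cells with their feeders. None of 27 collagens was called by limma (3 at an unadjusted p below 0.05). Across 62 guidance genes, 6 were higher and 8 lower, Sema6d, Epha2, Sema3c and Sema3e in one direction and Nrp2, Unc5c, Epha4 and Robo1 in the other. Apelin (Apln, -1.44) and its receptor Aplnr (-2.21), which guides mesoderm movement in fish and mouse, were both lower. They were the 2 called of 18 chemokine and migration genes. Apela, of the same list, was on the DEP side (0.89, adjusted p = 1.83e-05, not called), with a difference of 1.46 at day 4.

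Most pluripotency genes were not called. Of 13 core and general genes 2 were higher, Utf1 and Foxd3, and Pou5f1 (0.30), Nanog (0.36) and Sox2 (0.37) did not pass. Utf1, a chromatin factor of pluripotent cells, was at 12.39, 12.53, 12.61 and 12.81 in DEPs, against 10.77, 10.46, 10.25 and 10.67 in MPs (2.05, standard error 0.18, adjusted p = 1.78e-05), and averaged 12.80 in ES cells. DEPs were thus at the ES level of Utf1 and MPs about 2 log2 units below it. Of 16 naive genes 2 were lower (Prdm14 and Tbx3). Of 13 formative genes Otx2 and Fgf5 were higher over both days, and 5 were higher at day 4 (all genes, 1.77%).

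Of 40 measured imprinted genes, a list also made after the values were seen, 5 were lower (Igf2, Phlda2, Peg10, Zim1 and Dlk1) and 2 higher (Nnat and Calcr). Phlda2, a maternally expressed growth repressor of the placenta, was at 11.96, 12.02, 11.14 and 11.53 in DEPs, against 13.53 to 13.65 in MPs (-1.92, standard error 0.12), and Peg10, a paternally expressed gene that the placenta needs, was at 11.57 to 11.92 in DEPs, against 13.24 to 13.57 in MPs (-1.68). Both were separated on every array. Zim1 lost its call without MP day 4 replicate 1. Lists of the cell cycle, metabolism and DNA methylation gave little over both days. Of 23 cell cycle genes only Ccnd2 passed. None of 23 glycolysis genes, none of 17 cholesterol synthesis genes and none of 8 DNA methylation enzymes passed over both days in limma. At an unadjusted p below 0.05 and with no limit on size the counts were 8, 1 and 4 of these lists, against 4427 of the 18716 genes. Within single days 1 of the 8 methylation enzymes was higher on each, Tet3 at day 2 (1.12) and Dnmt3b at day 4 (1.70). Over all genes 0.647% were higher at day 2 and 1.77% at day 4.

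More genes were called at day 4 than at day 2. At day 2, 121 genes were higher and 101 lower, and at day 4, 331 and 334, in comparisons that share no array. The day 2 counts depended on single arrays: 79 were higher without MP day 2 replicate 2 and 80 without DEP day 2 replicate 1, and 67 were lower without MP day 2 replicate 1. The shares of day 2 genes that follow rest on the full counts. On both days 85 were higher, 70.2% of the higher genes of day 2 and 25.7% of those of day 4, and 74 were lower (73.3% and 22.2%). A total of 2 genes were higher in DEPs at day 2 and lower at day 4, Kit and Nxf7, named here after their values were seen, and 0 the reverse. Kit, the receptor of stem cell factor, was at 9.83 and 9.84 on the day 2 and 9.65 and 9.51 on the day 4 DEP arrays, against 8.56 and 8.51 on day 2 and 10.82 and 10.74 on day 4 in MPs. Its differences were 1.30 and -1.20.

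The difference itself changed with the day for 123 genes upwards and 170 downwards, and without MP day 2 replicate 1 for 81 upwards and 141 downwards. Upward changes were led by Shisa6 (3.29), Pga5 (3.20), the trypsin inhibitor Spink1 (3.17), Slc27a2 (3.07), the glypican Gpc4 (2.75), the calcitonin receptor gene Calcr (2.58), neurofilament light chain (Nefl, 2.53) and Otx2 (2.51). Nefl was at 12.27, 12.53, 12.08 and 12.04 in DEPs, against 12.05 and 12.07 on day 2 and 9.16 and 9.22 on day 4 in MPs, whereas Pga5 was at 7.90 and 7.33 on day 2 and 10.44 and 10.97 on day 4 in DEPs, against 6.77 to 6.98 in MPs. With the later day the MP level was lower for Nefl and the DEP level was higher for Pga5. Downward changes were led by Cpm (-3.41), Hoxc8 (-3.19), Pmp22 (-3.10), Lefty1 (-3.07), Hoxc6 (-2.77), Adgra2, a co-receptor of Wnt7 signals (-2.76), the netrin receptor Unc5c (-2.73) and Wnt5a (-2.69). In this group Lefty1 alone was higher in DEPs on both days, with a smaller gap at day 4, and the others were lower in DEPs at day 4.

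**Figure D4:**
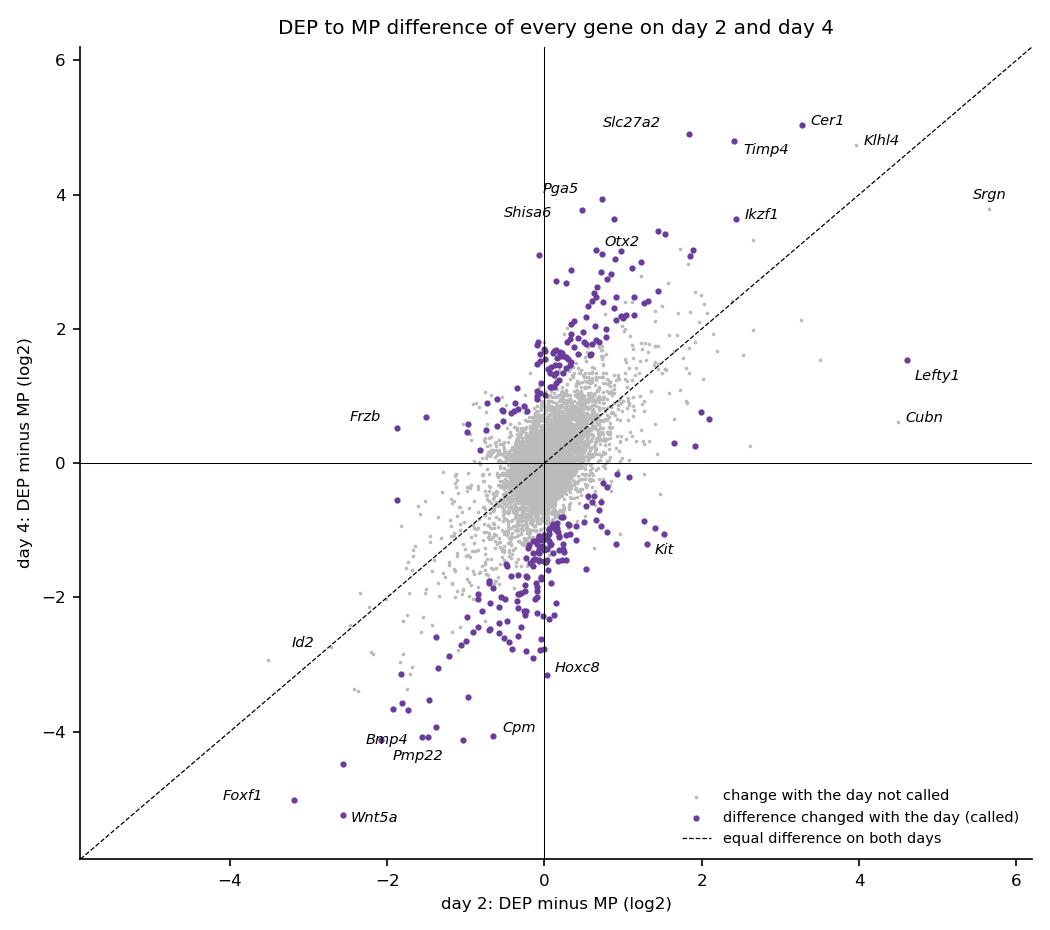
Log2 difference of each of 18716 genes, DEP minus MP, at day 2 (horizontal) and day 4 (vertical), with genes whose difference changed with the day in purple and a dashed line of equal difference. Lefty1 and Kit lie below the line to the right, Slc27a2, Pga5 and Shisa6 well above it, and Hoxc8 at 0.03 and -3.16.

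The later populations, which share no array with the progenitors, showed which of these differences were seen again. In DE compared with MES at day 4, 797 genes were higher (4.26%) and 675 lower (3.61%). Of the 187 genes higher in DEPs 102 were higher in DE (54.5%, and 12.8% of the 797), and of the 184 lower genes 117 were lower there (63.6%, and 17.3% of the 675). The opposite direction was called for 6 and for 4. The 6, higher in DEPs and lower in DE, were Cdh3, Map7d3, Nefl, Nes, Sema3e and Slc6a15. The 4 were Kitl, Lxn, Prdm1 and Robo1. The CD24 gate also differs between DE and MES, so that lineage and gate change together there.

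The change of the lineage difference between the CD24-low progenitors and the later cells at day 4 was called upwards for 747 genes (3.99%) and downwards for 636 (3.40%). Prdm1 had the largest upward change (4.56): at day 4 it was at 8.09 and 8.28 in DEPs, against 10.29 and 10.37 in MPs, and averaged 10.57 in DE cells, against 8.16 in MES cells. Prdm1 was thus higher in mesoderm among the progenitors and higher in endoderm among the later cells. The next were Akr1c19 (4.29), the iron exporter Slc40a1 (4.12), Rfx6, a factor of gut and pancreas (4.04), the protease Tmprss2 (3.91), Kit (3.89), the phosphate transporter Slc34a2 (3.89) and Tmem184a (3.81). Rfx6 was at 6.34 to 7.29 in DEPs and averaged 11.13 in DE cells.

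Downward changes were of 2 kinds. Timp4 (-4.18) averaged 7.21 in DE and 6.60 in MES cells, so a gene that was 4.80 higher in DEPs than MPs at day 4 was not called between the later populations (0.61). Nefl (-4.62), the amino acid transporter Slc6a15 (-4.47), the kinase Cdk6 (-4.51), the factor Etv1 (-4.41), Cyria (-3.86), the carbonic anhydrase Car14 (-3.83) and Fndc3c1 (-3.81) had lower levels in DE than in MES cells. Cyria, Car14 and Fndc3c1 did not differ by the rule between DEPs and MPs (-0.16, -0.24 and 0.06). Cdk6 (0.96) and Etv1 (0.54) were not called over both days, and their differences at day 4 were 1.35 and 1.14.

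The medians against ES cells given here are of genes picked for their calls between DEPs and MPs. The gap between DEPs and MPs is therefore built in, and a smaller gap in other cells can follow from the choice. Over all measured genes of the lists, median differences at day 4 were 0.26 (cilium), -0.77 (interferon) and -0.90 (Hox). In DE compared with MES they were 0.06, -0.35 and -0.24. The 18 cilium genes higher in DEPs were near the ES level in the later cells. Their median was 1.26 above ES cells in DEPs of day 2, 1.88 in DEPs of day 4 and 0.16 in DE. It was 0.11 and 0.00 in MPs of the same days and -0.04 in MES. Pkd1l1 was an exception, with a mean of 8.29 in DE cells, against 6.81 in MES cells. The change with the gate was called downwards for 19 of 141 measured cilium genes (all genes, 3.40%). It was called upwards for 1 (all genes, 3.99%), Ttc6, which averaged 9.23 in DE cells. The 12 interferon genes had medians of -0.58 and -1.29 in DEPs of days 2 and 4 and -1.32 in DE, against 0.24 and 1.22 in MPs and 0.31 in MES. The 8 Hox genes were at -0.27, -0.39 and -0.22 in DEPs of days 2 and 4 and DE. In MPs of days 2 and 4 and MES they were at -0.24, 1.73 and 0.50. None of the 8 was called at day 2, so a high median in day 4 MPs came with the choice of genes. In DE compared with MES, 10 of 36 interferon genes and 4 of 37 Hox genes were lower and none of either higher. Over all genes 3.61% were lower and 4.26% higher there.

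**Figure D5:**
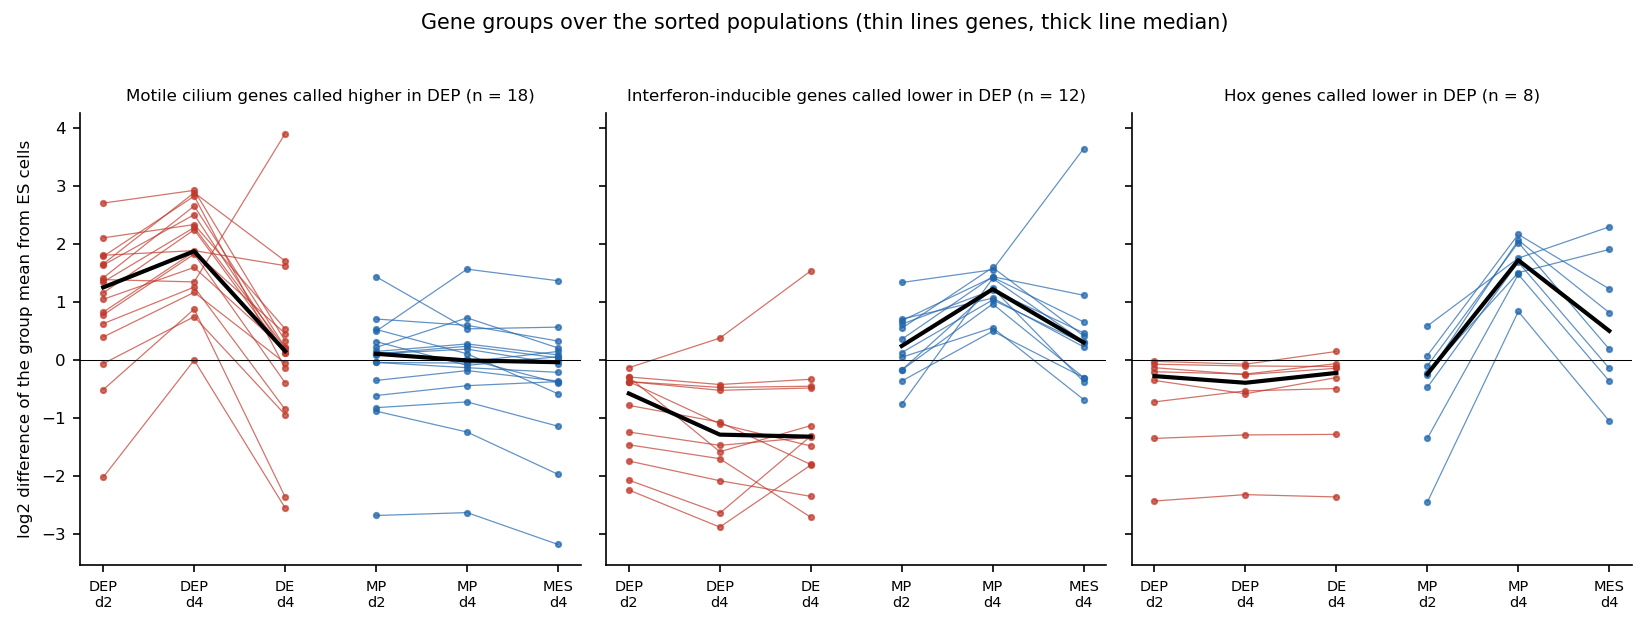
Group mean minus ES mean, in log2 units, for the motile cilium genes higher in DEPs and the interferon and Hox genes lower in DEPs, with DEPs and DE in red and MPs and MES in blue, thin lines for genes and a thick line for their median. The cilium median reaches 1.88 in day 4 DEPs and 0.16 in DE cells, and the Hox median reaches 1.73 in day 4 MPs. The genes were picked for their calls between DEPs and MPs, so the gap between DEPs and MPs is built in.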

How the data were processed

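Total RNA from 16 samples in 8 groups, 2 labelled biological replicates each, was hybridised to Affymetrix Mouse Gene ST 1.0 arrays. The authors deposited log2 intensities, processed with RMA (oligo 1.48.0, per the labels). These values were used as deposited. As in the study's methods, the 32000 of 35556 probe sets with the highest mean were kept. Of these, 20427 have 1 gene symbol in the platform annotation, 1400 several and 10173 none. Each of 18716 genes was read from its brightest single-symbol probe set. Group means were fitted over all 16 arrays with limma 3.58.1 in R 4.3.3, with Benjamini-Hochberg adjustment over the 32000 probe sets, after the code had been tested on simulated data. Day weighting in the main contrast was chosen here. All members, lists and tests were chosen with earlier results of these data known, and the motile cilium, guanylate-binding and imprinted lists and the motifs GAAANNGAA and GTTGCC after the values were seen.

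Named genes were the sorting genes, the 20 highest and 20 lowest differences without overlap of arrays, up to 12 called members and the best known members of each list, and the 8 largest changes each way with the day and with the gate. Other genes are said to have been named after their values were seen. Alternatives covered the probe set filter, the arrays fitted, the variance trend, the replicate block, the array scale, the call rule, the probe set rule, each day alone and each array left out. Motifs were searched in RefSeq promoters of GRCm38.p6. The transcript T was not analysed here.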

Additional observations from a re-analysis of the deposited data

Results flagged for a closer look

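Of the 217 genes named above, the difference between DEPs and MPs itself differed between day 2 and day 4 for 83, by the interaction term of limma (absolute log2 change above 1, adjusted p below 0.05). Most of these genes were named for large differences, and 16 of them for this very change, so the count describes the choice of genes; over all genes 0.657% changed upwards and 0.908% downwards. For 31 the day 4 difference lay above that of day 2, counted as DEP minus MP. The changes above 2 log2 units were those of Shisa6 (3.29), Pga5 (3.20), Spink1 (3.17), Slc27a2 (3.07), Gpc4 (2.75), Calcr (2.58), Nefl (2.53), Otx2 (2.51), Timp4 (2.38), Fgf5 (2.38), Dkk1 (2.15) and Mal2 (2.01). Smaller upward changes were called for Capsl (1.97), Gpx2 (1.89), Rab25 (1.80), Slc6a15 (1.77), Cer1 (1.76), Myb (1.75), Irs4 (1.65), Igfbp2 (1.56), Map7d3 (1.41), Fzd5 (1.30), Gpm6b (1.29), Fgf14 (1.23), Sema6d (1.22), Cldn6 (1.22), Ikzf1 (1.19), Nme5 (1.12), Eomes (1.11), Cfap206 (1.11) and Efcab1 (1.11).

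For 52 genes the day 4 difference lay below that of day 2. The 8 called Hox genes were all among them: Hoxc8 (-3.19), Hoxc6 (-2.77), Hoxc10 (-2.40), Hoxd8 (-2.37), Hoxa9 (-2.26), Hoxd9 (-2.13), Hoxb2 (-1.53) and Hoxb1 (-1.20). Interferon-related genes were Oasl2 (-2.51), Parp12 (-2.04), Trim30a (-1.89), Gbp7 (-1.81), Irgm1 (-1.77), Gbp4 (-1.76), Irf1 (-1.65), Ifitm1 (-1.32), Psmb10 (-1.31), Ifih1 (-1.18), Psme2 (-1.11) and Gbp3 (-1.02). Of the rest, changes beyond -2 were found for Cpm (-3.41), Pmp22 (-3.10), Lefty1 (-3.07), Adgra2 (-2.76), Unc5c (-2.73), Wnt5a (-2.69), Bmp4 (-2.60), Nxf7 (-2.59), Hmcn1 (-2.54), Cdx2 (-2.52), Kit (-2.49), Pdgfrb (-2.36), Igfbp4 (-2.21), Crabp1 (-2.14), Acta2 (-2.10), Alpl (-2.07) and Etv2 (-2.02), and smaller ones for Foxf1 (-1.83), Plac1 (-1.78), Hand1 (-1.74), Aplnr (-1.71), Isl1 (-1.70), Cdh5 (-1.66), Cdh3 (-1.66), Tfap2c (-1.65), Dlk1 (-1.63), Pecam1 (-1.56), Crb2 (-1.41), Prdm14 (-1.40), Nkx1-2 (-1.26), Tfap2a (-1.21) and Slc40a1 (-1.19).

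Of the 27 named genes read against the later populations, the lineage difference changed with the CD24 gate at day 4 for 26. These genes were named for that change or for opposite calls in the progenitors and the later cells, with few exceptions, so the count was largely fixed by the choice; over all genes 3.99% changed upwards and 3.40% downwards. It was higher in DE minus MES than in DEP minus MP for Prdm1 (4.56), Akr1c19 (4.29), Slc40a1 (4.12), Rfx6 (4.04), Tmprss2 (3.91), Kit (3.89), Slc34a2 (3.89), Tmem184a (3.81), Lxn (3.38), Sox17 (3.01), Kitl (2.75), Ttc6 (2.52), Robo1 (1.92) and Cd24a (1.77). It was lower for Nefl (-4.62), Cdk6 (-4.51), Slc6a15 (-4.47), Etv1 (-4.41), Timp4 (-4.18), Cyria (-3.86), Car14 (-3.83), Fndc3c1 (-3.81), Map7d3 (-3.39), Nes (-2.53), Sema3e (-2.51) and Cdh3 (-1.58). With 2 arrays a group no single array could be tested for its distance from the others.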

How the results depend on the processing

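The 371 genes called between DEPs and MPs became 2228 at an adjusted p below 0.05 with no limit on size, 122 in a test against a difference of 1 (treat), 222 on day 2 alone and 665 on day 4 alone. At day 2 the counts were 611 without the limit on size and 33 by treat. At day 4 they were 2192 and 214, and 442 with the 16000 probe sets of highest mean. For the change with the day they were 466, 24 and 189 in the same order, for DE compared with MES 5045 and 665 (no limit, treat), and for the change with the gate 3091 and 310. Fewer probe sets were tested in the 16000, and the cause of the other shifts was not tested. Leaving out 1 array gave 350 to 386 genes in the main comparison, 156 to 218 at day 2, 637 to 669 at day 4, 221 to 272 for the change with the day, 1426 to 1500 in DE compared with MES and 1266 to 1444 for the change with the gate. On day 2 alone the sign turned for Spink1 (-0.07), Hoxc8 (0.03), Hoxc6 (0.00), Hoxd8 (0.06) and Hoxc10 (0.12), and on day 4 alone Kit was at -1.20. The other alternatives (all probe sets, only the arrays compared, an intensity trend, equal array medians, the mean of a gene's probe sets) moved no count by 1.5 times.

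Same-numbered arrays deviated from their group means with r of -0.17 to 0.11 over 6 pairs of the DEP and MP groups (1 above 0.1), so the numbers were not taken as pairs. With the replicate number as a block the counts were 371, 222, 667, 293, 1475 and 1400, and no call of a named gene changed.

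With 2 arrays a group the precision is limited by their number, and on dim probe sets near background a difference can be understated.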
